A study of Mus musculus with 12 samples.

Results

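Chemokines are small secreted proteins that guide the movement of leukocytes, and the CC and CXC families are named after the spacing of conserved cysteines near the amino end of the protein. Most act by binding receptors in the cell membrane of the Ccr and Cxcr families, while atypical receptors of the Ackr family bind chemokines without the usual signalling and lower or redistribute them. In atherosclerosis, chemokines such as Ccl2 are known for drawing monocytes into the arterial wall, and others, such as Cxcl12 and Ccl21, are made constantly by stromal and endothelial cells.

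The CC and CXC chemokines were taken as every row of the deposited count table whose symbol begins with Ccl or Cxcl and a digit, which gave 33 of 25284 genes, 20 CC and 13 CXC. Of the 33, 24 passed a filter on low counts and were tested. The other 9, Cxcl2, Ccl22, Ccl19-ps1, Ccl17, Cxcl17, Cxcl3, Cxcl11, Ccl20 and Cxcl15, are given as counts only. Ccl1, Ccl21b, Ccl21c, Ccl21d, Ccl26 and Ccl27b had no row and were not analysed here.

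RNA from the thoracic aorta of 12 male ApoE-/- mice (C57BL/6 background) was sequenced as stranded total RNA. The mice lack apolipoprotein E, a protein that helps remove lipoproteins from the circulation, and form plaques. All ate a diet rich in fat and cholesterol from 10 weeks of age and were taken at 18 weeks. From subcutaneous osmotic minipumps, 6 control mice (C1 to C6) received vehicle, cyclodextrin in saline, and 6 mice (A1 to A6) received AZ6983, an agonist of the α7 nicotinic acetylcholine receptor, at a daily dose of 50 µmol per kg over 8 weeks. Every group was therefore ApoE-/- and on the diet, and no comparison with plaque-free aorta was possible.

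Counts on genes per library ranged from 23810036 to 35864666. Apoe had 117 to 306 counts in controls and 214 to 311 in AZ6983 mice. Smooth muscle genes, the defining genes of the vessel wall, summed to 11340 to 19300 CPM (counts scaled to the size of each library) over the 12 mice, and the 10 macrophage genes to 620.3 to 954 CPM. Fibroblast genes summed to 4624 to 7593 CPM, brown adipocyte genes to 2400 to 5814 CPM and white adipocyte genes to 830.5 to 1517 CPM. The libraries thus also held fat, and which cells made each chemokine was not tested. The columns of the table carry a further number whose meaning is not given, 3 to 7 and 12 for controls and 1, 2 and 8 to 11 for AZ6983 mice, so whatever it stands for can hardly be told apart from treatment. The TMM scaling factor of A5 was 0.837, against 0.987 to 1.07 in the other mice. Reads outside genes made up 8.02% to 12.7% of the reads in controls and 11.2% to 14.9% in AZ6983 mice, and a fit with this share as a covariate is given for some genes. Whole aorta was sequenced, so fewer cells of a type and less RNA per cell cannot be told apart.

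The genes lie in clusters (GENCODE M21, GRCm38). Ccl2, Ccl7, Ccl11, Ccl12 and Ccl8 lie at chr11:82035571-82116799, and Ccl5, Ccl9, Ccl6, Ccl3 and Ccl4 at chr11:83525778-83664683. The neutrophil-attracting genes Cxcl5, Cxcl3, Cxcl15, Cxcl1 and Cxcl2 lie at chr5:90759360-90905938, and Cxcl9, Cxcl10 and Cxcl11 at chr5:92321347-92365485. Promoters of 22 of the 33 genes were found in RefSeq (GRCm38.p6), as 25 promoters in all. Within the 250 bases before the start site, the kB motif, the recognition sequence of NF-kB factors, searched on both strands, was present in 5 of the 25 and in 1.41% of 32851 promoters, and belonged to Ccl9, Ccl20, Cxcl1, Cxcl2 and Cxcl3. The motif of interferon-stimulated response elements, also searched on both strands, was present in 3 of the 25, those of Ccl19, Cxcl10 and Cxcl14, and in 2.98% of all promoters. A match is only a match of letters. The promoters of Cxcl1, Cxcl2 and Cxcl3, neighbours whose levels are described per mouse below, are shown for the motif they share, and that of Cxcl10 for the other motif. Each is printed 5′ to 3′ on the strand of its gene, with motif matches in capitals.
Cxcl1 (chr5:90890995-90891244, plus strand): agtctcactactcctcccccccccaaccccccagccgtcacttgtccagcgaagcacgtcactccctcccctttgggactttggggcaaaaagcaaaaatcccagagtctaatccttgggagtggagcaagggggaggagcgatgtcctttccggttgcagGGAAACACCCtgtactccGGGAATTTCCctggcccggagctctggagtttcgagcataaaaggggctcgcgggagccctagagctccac
Cxcl2 (chr5:90903649-90903898, plus strand): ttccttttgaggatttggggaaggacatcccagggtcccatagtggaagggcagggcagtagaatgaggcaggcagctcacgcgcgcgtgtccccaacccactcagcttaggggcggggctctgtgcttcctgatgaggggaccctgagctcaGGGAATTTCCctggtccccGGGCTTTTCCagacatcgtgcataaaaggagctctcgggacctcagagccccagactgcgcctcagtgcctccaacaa
Cxcl3 (chr5:90785851-90786100, plus strand): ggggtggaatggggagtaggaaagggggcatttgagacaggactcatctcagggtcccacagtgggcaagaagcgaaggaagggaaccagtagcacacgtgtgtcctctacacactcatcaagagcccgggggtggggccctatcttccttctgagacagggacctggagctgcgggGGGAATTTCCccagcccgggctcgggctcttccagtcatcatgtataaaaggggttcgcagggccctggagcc
Cxcl10 (chr5:92348890-92349139, minus strand): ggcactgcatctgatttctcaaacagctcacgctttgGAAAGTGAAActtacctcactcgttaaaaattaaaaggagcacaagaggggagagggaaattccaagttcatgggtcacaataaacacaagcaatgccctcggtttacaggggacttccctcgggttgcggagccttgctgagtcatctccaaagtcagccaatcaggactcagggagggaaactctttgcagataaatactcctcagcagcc
Cxcl1 and Cxcl2 each held 2 matches to the searched form of the kB motif and Cxcl3 held 1.

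The most abundant chemokines of the plaque-bearing aorta were compared per length of exon, in CPM per kb. The length merges the exons of all annotated transcripts of a gene, so it can exceed that of any single transcript. The order below depends on this choice. Ccl8, which attracts monocytes and other leukocytes, had the highest mean over the 12 mice, 37.6 CPM per kb, followed by Ccl6 at 34.2, a Ccr1 ligand made by myeloid cells. Cxcl12, the stromal ligand of Cxcr4, followed at 18.6, then Ccl21a at 17.7, which guides cells bearing Ccr7 to lymphatics, Ccl11 at 15.6, the eosinophil attractant eotaxin, and Ccl9 at 14.7, the neighbour of Ccl6. These 6 genes made up 72.0% to 86.1% of the summed chemokine level per kb in the 12 mice, with a median of 79.4%. Within these 6, the range of each gene over mice overlapped that of the next. Ccl8 was above Ccl6 in 6 of 6 AZ6983 mice but in 2 of 6 controls, and A3, at 104.5 CPM per kb, raised its mean. In controls the median was 26.4 CPM per kb for Ccl8 and 34.8 for Ccl6, and over all 12 mice the medians were 31.7 and 33.6. Ccl6 was above Cxcl12 in 12 of 12 although the ranges overlapped. The order from Cxcl12 to Ccl11 was not separated, with Cxcl12 above Ccl21a in 7 of 12 mice and Ccl21a above Ccl11 in 7 of 12. Ccl9 and Cxcl16 were the first neighbours whose ranges did not overlap, and Cxcl16 had a mean of 5.99 CPM per kb.

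**Figure D1:**
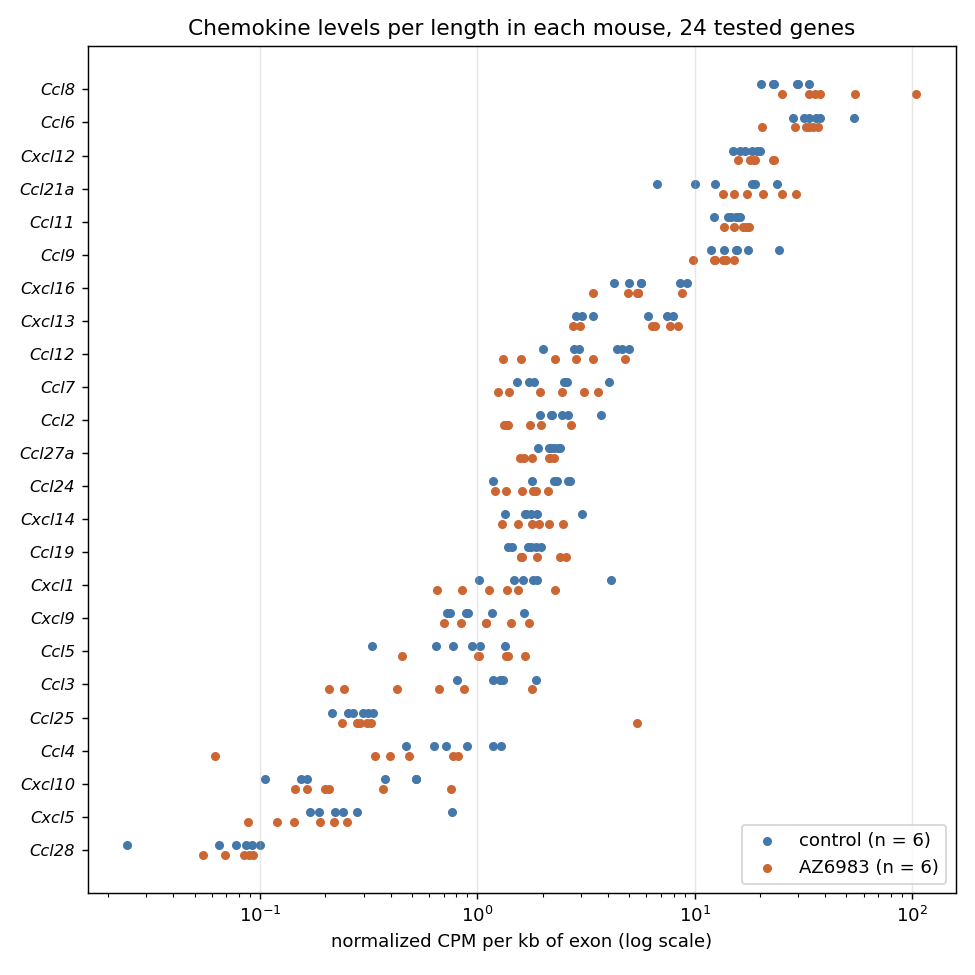
Level of each of the 24 tested chemokines in each mouse, in normalized CPM per kb of exon on a log axis, with controls in blue and AZ6983 mice in orange (6 mice each); the value of Ccl28 in mouse A2 was 0 and cannot be drawn. Ccl8 to Ccl9 form the top 6, and the point of Ccl25 at 5.41 CPM per kb is mouse A4.

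The remaining genes were lower. Cxcl13, the attractant of B cells, had a mean of 5.47 CPM per kb, Ccl12, a ligand of Ccr2, 3.17, Ccl7 2.33 and Ccl2 2.13, both also Ccr2 ligands. Ccl27a, known from skin, had 2.06, Ccl24, an eotaxin, 1.90, Cxcl14 1.88 and Ccl19, the other ligand of Ccr7, 1.83. Cxcl1, which attracts neutrophils through Cxcr2, had 1.65 and Cxcl9, a ligand of Cxcr3 on activated T cells, 1.08. The other 16 genes had means below 1 CPM per kb. Without scaling to length, Cxcl12 led at a mean of 152 CPM, with 61.3 CPM for Ccl6 and 44.7 CPM for Ccl9, and its exons cover 8176 bases against 511 for Ccl8.

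Some levels are uncertain because genes share sequence. Of the 75-base windows in the exons of Ccl21a, 61.3% were also found in other genes, such as Ccl21b, and the figure was 45.3% for Ccl19 and 33.3% for Ccl27a. Reads that fit more than 1 place were set aside before counting. The levels per kb of these genes may therefore be too low, and with them the rank of Ccl21a. The exons of Cxcl16 overlap those of Zmynd15 on the opposite strand by 552 bases. In the same way those of Ccl25 overlap Elavl1 by 204 bases and those of Cxcl10 overlap Art3 by 133. Those of Cxcl11, an untested gene that GENCODE types as a polymorphic pseudogene, overlap Gm2673 by 1582. Whether the strand was used in counting is not given in the sources used here.

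The summed level of the 33 chemokines was 326 to 398 CPM in controls, with a median of 363, and 307 to 410 CPM in AZ6983 mice, with a median of 381, so the groups overlapped.

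AZ6983 was compared with control across all 15857 genes tested. In edgeR's quasi-likelihood test with Benjamini-Hochberg adjustment, 0 of 24 chemokines passed 10% FDR, and the share of all genes that passed was 0%. Adjusted p-values of the 24 ran from 0.450 to 0.995. At an unadjusted p under 0.05, 2 chemokines were higher with AZ6983, Ccl8 and Ccl25, where the share of all genes was 7.38%, and 3 were lower, Ccl9, Ccl2 and Cxcl5, where the share was 2.81%. DESeq2 with its defaults called 92 genes, 0.523% of those it tested, of which 0 were chemokines. It gave no adjusted p for Ccl25. The log2 fold change was above 0 for 10 of the 24 and below 0 for 14, against 52.4% above 0 over all genes, and the median was -0.12 against 0.0090. For none of the 24 tested genes were the groups of mice without overlap, against 0.41% of all genes (0.259% higher and 0.151% lower). Cxcl17, with 19 counts in all and not tested, was the exception among the 33, at 0 to 1 count in controls and 2 to 5 in AZ6983 mice. Of the other untested genes, Cxcl3 and Cxcl15 had 0 to 3 counts per mouse, the pseudogene Ccl19-ps1 0 to 9, and Ccl17, a ligand of Ccr4, 0 to 11.

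**Figure D2:**
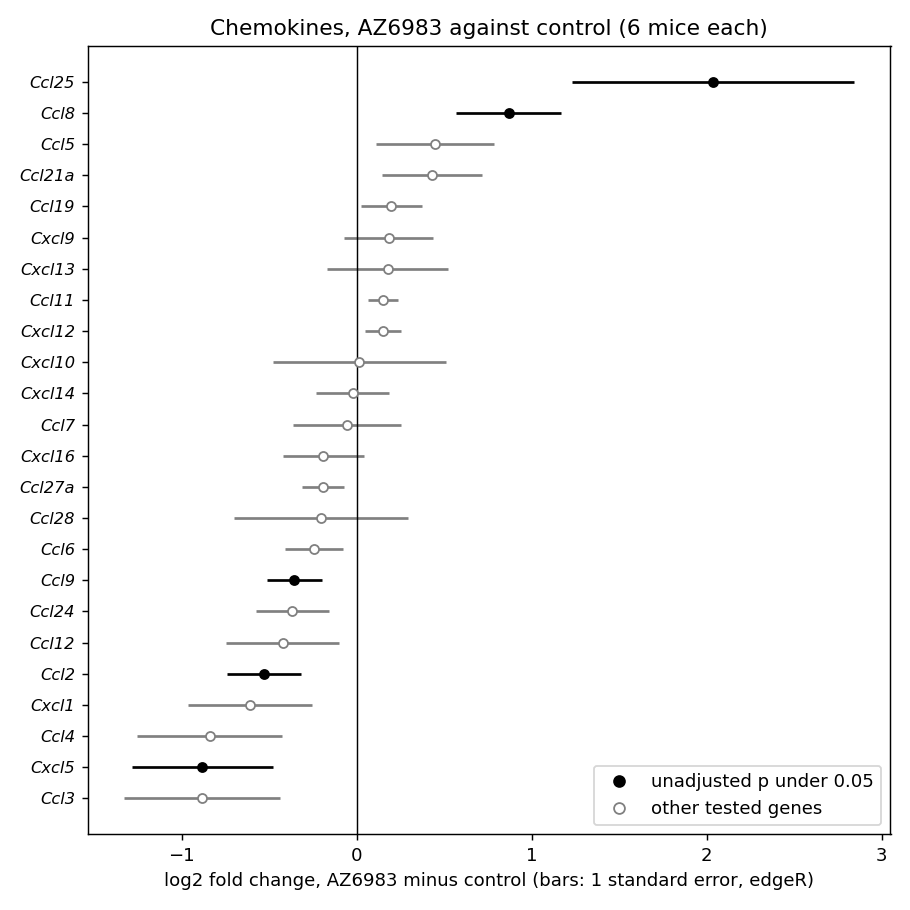
Log2 fold change of AZ6983 over control for the 24 tested chemokines, from edgeR, with 1 standard error as bars and filled points for an unadjusted p under 0.05. The points run from -0.88 for Ccl3 to 2.04 for Ccl25, and none passed 10% FDR.

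In the group of Ccl2, Ccl7, Ccl8 and Ccl12, 4 genes were tested and 0 called. The receptor on which Ccl8 acts was not examined here. Ccl8 had 10.4 CPM in the lowest control, a median of 13.5 and 17.2 in the highest. In AZ6983 mice it had 12.9 to 53.4 CPM with a median of 18.8. In 4 of the 6 AZ6983 mice it was above every control, and the highest was A3. Its log2 fold change was 0.87 (SE, the standard error, 0.299, unadjusted p = 0.0124, adjusted p = 0.450 in edgeR), and 0.49 without A3. Its unadjusted p stayed under 0.05 in each of the 12 fits that left out 1 mouse.

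Ccl2, the main attractant of inflammatory monocytes, was at 2.21 to 4.22 CPM (median 2.66) in controls and 1.51 to 3.06 CPM (median 1.78) in AZ6983 mice. 4 AZ6983 mice were below every control, and C6 was the highest of all. Its log2 fold change was -0.53 (SE 0.214, unadjusted p = 0.0280, adjusted p = 0.462 in edgeR), and -0.39 without C6, with an unadjusted p of 0.0779 in edgeR. With reads outside genes as a covariate it was -0.88, with an unadjusted p of 0.0124 and an adjusted p of 0.9998 in edgeR. Ccl12 and Ccl7 had log2 fold changes of -0.42 and -0.05. Of the 4 genes of this group, 3 were thus below 0 and only Ccl8 above. Ccr2, the receptor of Ccl2, had a log2 fold change of -0.05 (SE 0.196), or -0.57 with reads outside genes as a covariate.

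Of the group of Ccl3, Ccl4, Ccl5, Ccl6 and Ccl9 (5 tested, 0 called), Ccl9 was at 36.4 to 74.6 CPM (median 47.5) in controls and 29.9 to 46.3 CPM (median 39.3) in AZ6983 mice. Its log2 fold change was -0.36 (SE 0.156, unadjusted p = 0.0401, adjusted p = 0.478 in edgeR), and -0.21 without C4, the highest mouse. With reads outside genes as a covariate it was -0.22, with an unadjusted p of 0.363 in edgeR. Ccl6, its neighbour in the genome, was at 51.2 to 97.5 CPM (median 62.5) in controls and 36.6 to 66.3 CPM (median 59.5) in AZ6983 mice, which gave a log2 change of -0.24 (SE 0.164, adjusted p = 0.589 in edgeR), or -0.10 without C4 and -0.07 with reads outside genes as a covariate. Both genes were highest in C4 and lowest in A5. The macrophage genes had a mean log2 CPM of 5.47 in A5, against 5.74 to 6.25 in the other mice, with 6.01 in C4. Their part in the levels of Ccl6 and Ccl9 in A5 was not tested. Ccl3 and Ccl4, attractants of macrophages and T cells, had log2 fold changes of -0.88 and -0.84 (adjusted p = 0.512 and 0.505 in edgeR) at 5 to 42 and 1 to 25 counts per mouse. Ccl5 was the 1 gene of this list above 0, at 0.45, and Ccr1, a receptor of several of these ligands, had 0.07 (SE 0.225), a direction that turned when C6, A3 or A6 was left out.

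The neutrophil-attracting CXC genes were low. Cxcl1 was at 1.92 to 7.72 CPM (median 3.22) in controls and 1.23 to 4.29 CPM (median 2.34) in AZ6983 mice, which gave a log2 change of -0.61 (SE 0.353, adjusted p = 0.548 in edgeR). Cxcl5 was at 0.316 to 1.43 CPM (median 0.432) in controls and 0.163 to 0.468 CPM (median 0.309) in AZ6983 mice, which gave a log2 change of -0.88 (SE 0.404, unadjusted p = 0.0479, adjusted p = 0.487 in edgeR). For both, the highest mouse was C6, and without it the log2 fold changes were -0.26 and -0.38. With reads outside genes as a covariate they were -1.16 and -1.36, with unadjusted p-values of 0.0429 and 0.0485 in edgeR. The adjusted p in that edgeR fit was 0.9998 for both. Their receptor Cxcr2 lay on the other side, at 0.476 to 3.72 CPM (median 1.96) in controls and 2.23 to 9.68 CPM (median 4.70) in AZ6983 mice, which gave a log2 change of 1.53 (SE 0.489, unadjusted p = 0.0080, adjusted p = 0.447 in edgeR). The 8 neutrophil marker genes, summed, were at 18.1 to 60.0 CPM in controls and 37.4 to 258.5 CPM in AZ6983 mice. In edgeR all 8 had an unadjusted p under 0.05, higher with AZ6983. None of them passed 10% FDR in that test, nor did any other of the 15857 genes tested. The paper's own list from DESeq2 at 10% FDR holds Ltf, Ngp, Csf3r and Camp as higher. The part of the neutrophil genes in the level of Cxcr2, which neutrophils carry, was not tested.

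Genes of lymphoid homing (4 tested, 0 called) all had log2 fold changes above 0. Ccl21a was at 5.82 to 20.8 CPM (median 13.4) in controls and 11.7 to 25.6 CPM (median 16.6) in AZ6983 mice, which gave a log2 change of 0.43 (SE 0.287, adjusted p = 0.587 in edgeR). Cxcl13 was at 3.28 to 9.12 CPM (median 5.47) in controls and 3.17 to 9.66 CPM (median 7.46) in AZ6983 mice, which gave a log2 change of 0.18 (SE 0.346). Ccl19 had 0.20, and Ccl25 is described with mouse A4. A4 was the highest mouse for Ccl21a, Cxcl13 and Ccl25, and without it their log2 fold changes were 0.29, 0.04 and 0.04. The groups overlapped for each of these genes.

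Of the CXC genes made by resident cells, Cxcl12 was at 123 to 163 CPM (median 144) in controls and 129 to 189 CPM (median 154) in AZ6983 mice, which gave a log2 change of 0.15 (SE 0.101, adjusted p = 0.588 in edgeR). With reads outside genes as a covariate its direction turned, to -0.14. Its receptor Cxcr4 had 0.57 (SE 0.381) and was at 32.8 CPM in A4, the highest mouse, without which it had 0.13. Ackr3, an atypical receptor that takes up Cxcl12, was at 65.8 to 92.1 CPM in controls and 70.0 to 113 CPM in AZ6983 mice, at 0.19 (SE 0.121). Cxcl16, a ligand of Cxcr6 whose membrane-bound form also takes up oxidized lipoprotein, was at 12.8 to 27.9 CPM (median 17.1) in controls and 10.2 to 26.6 CPM (median 16.5) in AZ6983 mice, which gave a log2 change of -0.19 (SE 0.230). Cxcl14 was at 2.44 to 5.55 CPM in controls and 2.39 to 4.55 CPM in AZ6983 mice, at -0.02 (SE 0.209), a direction that depended on which mouse was left out.

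The eotaxin Ccl11 was among the least variable, at 13.3 to 17.5 CPM (median 16.4) in controls and 14.8 to 19.3 CPM (median 18.4) in AZ6983 mice, which gave a log2 change of 0.15 (SE 0.0851, adjusted p = 0.538 in edgeR). Ccl24, the other eotaxin, had -0.37. Ccl27a was at 4.50 to 5.71 CPM in controls and 3.73 to 5.37 CPM in AZ6983 mice, at -0.19 (SE 0.119, adjusted p = 0.566 in edgeR), and Ccl28 had -0.20. Ccr10, the receptor of Ccl27a and Ccl28, was at 0.277 to 0.707 CPM in controls and 0.186 to 0.409 CPM in AZ6983 mice, which gave a log2 change of -0.84 (SE 0.269, unadjusted p = 0.0084, adjusted p = 0.447 in edgeR), from 7 to 19 counts per mouse. Of the Cxcr3 ligands, Cxcl9 was at 2.20 to 4.96 CPM in controls and 2.12 to 5.23 CPM in AZ6983 mice, at 0.18 (SE 0.253, -0.30 with reads outside genes as a covariate), and Cxcl10 had 0.02 (SE 0.493).

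Of the other genes of the pathway, 21 of 27 were tested, 0 passed 10% FDR in edgeR, 3 had an unadjusted p under 0.05 and were higher (Ppbp, Ccr9 and Cxcr2) and 1 was lower (Ccr10), where the shares of all genes tested were 7.38% and 2.81%. Without A4 the unadjusted p of Ccr9 was 0.903 and without A3 that of Ppbp was 0.242 in edgeR. The others tested had no such p. Cx3cl1, the membrane-bound ligand of Cx3cr1, had a log2 fold change of -0.25 and Cx3cr1 -0.17. The atypical receptors Ccrl2 and Ackr2 had -0.18 and 0.31.

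By a rule of at least 33.3% of the summed CPM and at least 20 counts, 2 chemokines were held by 1 mouse, Ccl25 and Ccl22, both by A4. Of the 24 tested genes 1 (4.17%), Ccl25, met the rule, against 2.70% of all genes tested.

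Ccl25, known from thymic epithelium and small intestine, had 1513 counts in A4 and 43 to 71 in each of the other 11 mice. A4 thus held 70.5% of its counts (95% interval 68.6% to 72.5%, exact Clopper-Pearson, counting error only). In CPM it was at 1.60 to 2.46 (median 2.11) in controls and at 1.78 to 2.41 in the other 5 AZ6983 mice, with 40.2 in A4. Its log2 fold change was 2.04 (SE 0.805, unadjusted p = 0.0253, adjusted p = 0.454 in edgeR) and 0.04 without A4. Ccr9, its receptor, which thymocytes carry, had 2050 counts in A4 and 0 to 43 elsewhere, and its log2 fold change of 3.79 (SE 1.44, unadjusted p = 0.0212, adjusted p = 0.450 in edgeR) was 0.10 without A4. So ligand and receptor were high in the same mouse.

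The thymic epithelium list in A4 gave 53 counts for Foxn1, 469 for Psmb11, 2530 for Prss16, 28 for Aire and 1154 for Tbata, where each was at 0 to 2 counts in every other mouse. Its 5 genes summed to 113 CPM in A4 and to 0 to 0.163 CPM in the other mice. The 7 thymocyte genes summed to 985 CPM in A4 and to 0.521 to 37.8 CPM in the others. These genes thus stood in the same library as Ccl25 and Ccr9.

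Ccl22, a ligand of Ccr4 made by dendritic cells and macrophages, had 66 of its 154 counts in A4 (42.9%, 34.9% to 51.1%) and 2 to 18 in each other mouse. In summed CPM, the measure of the rule, A4 held 35.5% of Ccl22, just past the limit of 33.3%. Ccr4 had 97 of 125 counts in A4. Ccl20, Cxcl11 and Cxcl10, named after their values were seen, were also highest in A4. Ccl20 had 13 of 15 counts there and 0 in 9 mice, where a count of 0 allows up to 3 counts, Cxcl11 had 8 of 14, and Cxcl10 had 64 of 248. A4 was the highest mouse in 9 of the 33 genes, and in 4 of the 24 tested, Ccl21a, Cxcl13, Ccl25 and Cxcl10, against 15.4% of all genes tested.

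**Figure D3:**
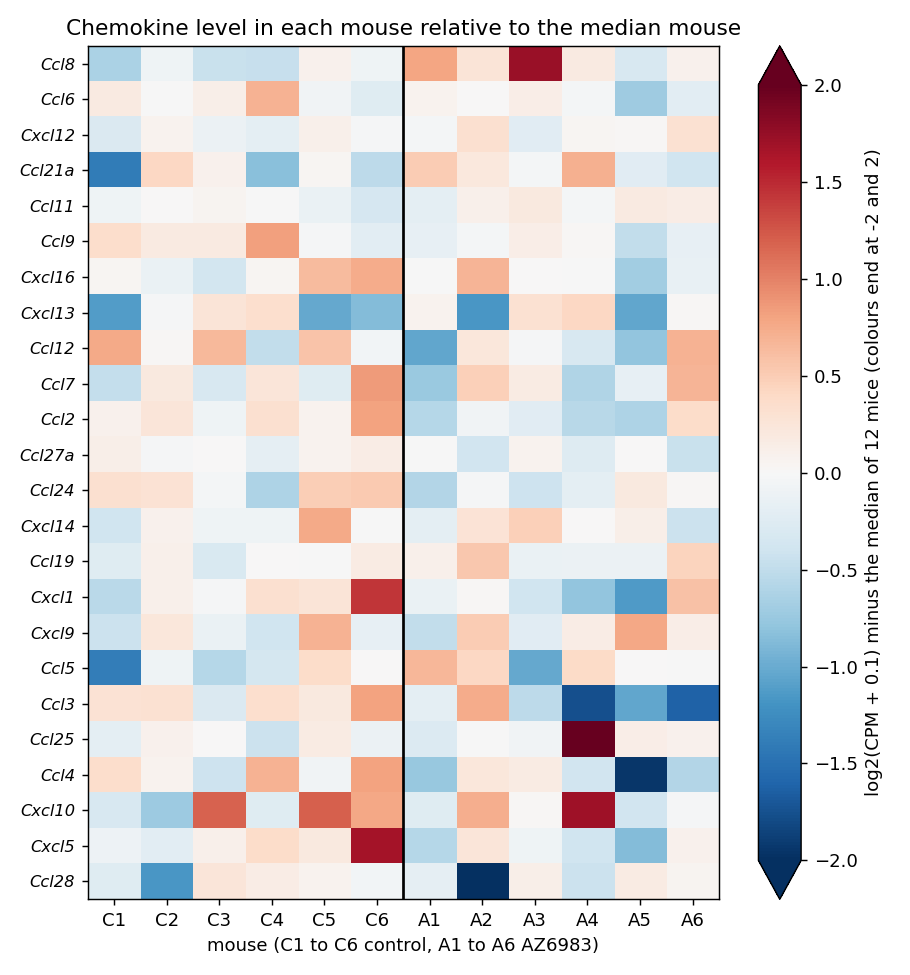
Level of the 24 tested chemokines in each mouse as log2(CPM + 0.1) minus the median of the 12 mice, red above and blue below, with genes in order of level per length. Dark red cells stand in A4 for Ccl25 and Cxcl10, in A3 for Ccl8 and in C6 for Cxcl1 and Cxcl5.

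Control C6 was the highest of the 12 mice for 9 of the 24 tested chemokines (37.5%): Cxcl16, Ccl27a, Cxcl1, Ccl24, Ccl2, Ccl7, Ccl3, Cxcl5 and Ccl4. The share over all genes tested was 9.55%. Cxcl1 had 227 counts in C6 and 30 to 115 in the others, Cxcl5 had 42 and 4 to 14, and Cxcl2 had 42 and 3 to 33. These 3 genes lie in the same cluster. Cxcl1 and Cxcl2 had matches to the searched form of the kB motif in their promoters, and no promoter of Cxcl5 was searched. The immediate early genes, which respond to stimulation within minutes, had a mean log2 CPM of 5.75 in C6 and of 4.14 to 4.54 in the other controls, with 5.47 in A1. Fos was at 134 CPM in C6, 70.5 in A1 and 14.0 to 33.2 in the rest. In A1, with the second highest score, Cxcl1 was at 2.56 CPM and Ccl2 at 1.56 CPM, both within the range of the other mice. The NF-kB feedback genes had a mean log2 CPM of 4.50 in C6 and 4.13 to 4.32 in the other controls, and of 4.29 to 4.82 in AZ6983 mice. The part of these genes in the chemokine levels of C6 was not tested.

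Mouse A3 held 1363 of the 6400 counts of Ccl8 (21.3%, 20.3% to 22.3%), with 297 to 750 in each other mouse. Of the related chemokines of platelets, Ppbp had 2816 of 5060 counts in A3 and 65 to 556 elsewhere, and Pf4 had 1301 of 7052 and 366 to 787 elsewhere. Without A3, the log2 fold change of Ppbp moved from 2.26 to 0.73 and that of Pf4 from 0.32 to -0.07. A3 also stood low in mesothelial genes, whose mean log2 CPM was -1.10 against 1.37 to 2.06 in the other AZ6983 mice. Without A3, Ccl8 still had a log2 fold change of 0.49.

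**Figure D4:**
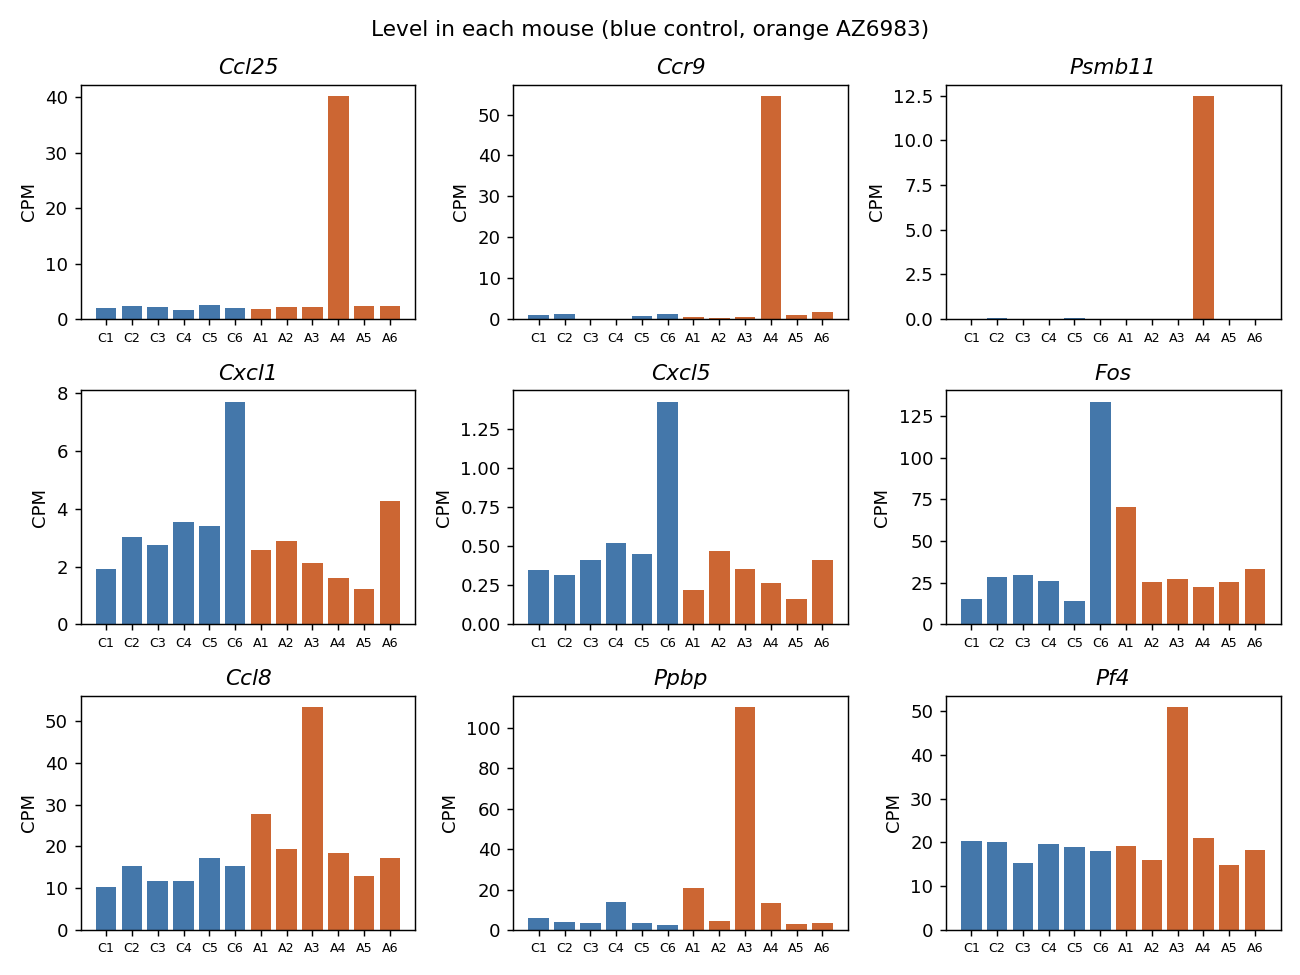
CPM of 9 genes in each mouse, controls in blue and AZ6983 mice in orange, with axes that start at 0. Ccl25, Ccr9 and Psmb11 stand in A4, Cxcl1, Cxcl5 and Fos are highest in C6, and Ccl8, Ppbp and Pf4 are highest in A3.

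Chemokine levels were set against cell type and response scores over the 12 mice in 14 pairs chosen for known sources of each chemokine. The pairs of Ccl25 with thymic epithelium and of Ccl22 with dendritic cells could not be run, because no gene of the former list and not Ccl22 passed the filter. A score is the mean log2 CPM of a list. By Pearson's r with permutation tests and Benjamini-Hochberg adjustment over the 14, 2 pairs had an adjusted p under 0.05. Cxcl16 and the macrophage score had r = 0.78 (permutation test, p = 0.00292, adjusted p = 0.0204) and Spearman's rho = 0.76 (permutation test, p = 0.00563, adjusted p = 0.0788). Within groups r was 0.81 in controls (exact permutation test, p = 0.0389) and 0.87 in AZ6983 mice (exact permutation test, p = 0.0236). Without A2 and A5, the mice farthest from the median score, it was 0.54 (permutation test, p = 0.109), so it rested in part on those mice.

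Ccl21a and the lymphatic endothelium score had r = 0.80 (permutation test, p = 0.00281, adjusted p = 0.0204) and rho = 0.52 (permutation test, p = 0.0881, adjusted p = 0.411). Within controls r was 0.99 (exact permutation test, p = 0.00139), but within AZ6983 mice it was -0.70 (exact permutation test, p = 0.122). Over both groups without C1 and C4, the controls lowest in both measures, r was 0.32 (permutation test, p = 0.380). The relation thus did not hold within AZ6983 mice, and the r over the 12 mice rested on C1 and C4. Within controls the order did not rest on C1 and C4 alone. From C6 through C5 and C3 to C2, both measures rose in the same order. Ccl21a went from 10.8 to 20.8 CPM and the score from 3.85 to 4.52.

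**Figure D5:**
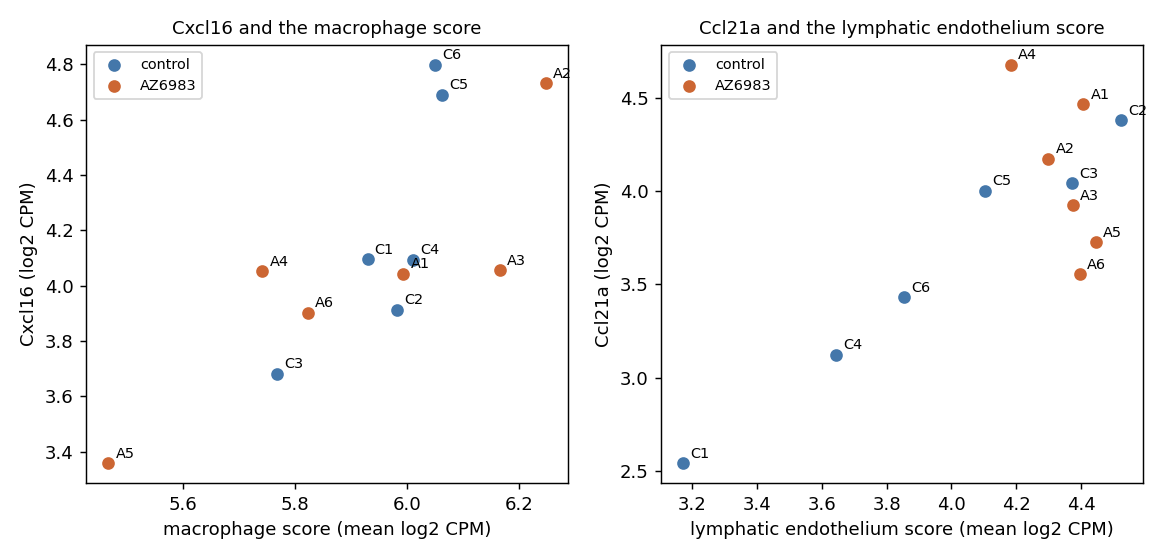
Level of Cxcl16 against the macrophage score and of Ccl21a against the lymphatic endothelium score, both as log2 CPM, for each mouse, controls in blue and AZ6983 mice in orange. Cxcl16 is higher in mice with a higher score in both groups, while C1 and C4 stand apart at the low end for Ccl21a.

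In the other 12 pairs the adjusted p of r was 0.169 or more. The pair of Cxcl10 and the interferon-stimulated score had r = 0.61 (permutation test, p = 0.0362, adjusted p = 0.169) and rho = 0.55 (permutation test, p = 0.0669, adjusted p = 0.411). Cxcl1 and the immediate early score had r = 0.52 over the 12 mice and 0.11 without A1 and C6 (permutation tests, p = 0.0953 and 0.769). Ccl7 went the other way with the same score, from r = 0.33 over the 12 mice to 0.73 without A1 and C6 (permutation tests, p = 0.296 and 0.0172). Within controls Ccl7 had r = 0.89 (exact permutation test, p = 0.0236) and within AZ6983 mice -0.30 (exact permutation test, p = 0.617), and its adjusted p over the 14 pairs was 0.461. C6 was the highest control for both Ccl7 and the score. Within controls Ccl2 had r = 0.90 with that score and Ccl11 had -0.91 with the fibroblast score (exact permutation tests, p = 0.0403 and 0.0111). In AZ6983 mice these were -0.17 and -0.31. Ccl6 had r = 0.85 with the macrophage score in AZ6983 mice (exact permutation test, p = 0.0236) and -0.14 in controls. These p-values within groups were not adjusted.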

How the data were processed

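Total RNA of thoracic aorta from 12 mice, 6 per group, was depleted of ribosomal RNA and sequenced as stranded libraries, 75 bases from each end. The authors deposited raw counts per gene symbol for 25284 genes, without normalization. The submitters' processing notes name CASAVA 1.8.2, STAR 2.5.2b, HTSeq 0.6.1p1 and the build mm10, and the annotation and strand setting are not given in the sources used here. A further 3 rows name no gene and were left out: reads outside genes (8.02% to 14.9% of the total), reads that fit several places (18.1% to 23.2%) and ambiguous reads (0.606% to 0.698%). Groups came from the sample labels, and 0 columns lacked a sample. The column of A1 matched by 3 of 4 digits of its mouse number. The labels give no batch, litter or pairing. The numbers at the end of the column names largely separate the groups, and their meaning is not given. Nothing says more of the replicates than that they are separate mice.

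The test was that of edgeR 4.0.16 (R 4.3.3, TMM, filterByExpr, quasi-likelihood test, no covariate, 15857 genes, Benjamini-Hochberg adjustment over all of them, 10% FDR as in the study's methods), and the standard error (SE) is the absolute log2 fold change over the square root of F. CPM values use TMM library sizes, and log2 CPM a prior count of 2. Alternatives were DESeq2 1.42.0 in 2 forms, limma-voom (limma 3.58.1), other normalizations, no filter, reads outside genes as a covariate, 5% FDR and each mouse left out. The script was tested on simulated data. Correlations used 100000 permutations, or all of them within a group of 6. Exon lengths, merged over all transcripts of a gene, and positions came from GENCODE M21, and promoters from RefSeq (GRCm38.p6). Depth limits the low genes, whose counts are given, and intervals cover counting error only, since reads carry no molecular identifiers.

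The members, gene lists, pairs and rules were chosen with earlier results of these data known. Members are described singly if their mean was at least 3 CPM, if 1 mouse held at least 33.3% of the summed CPM with at least 20 counts, or if they were among the 5 with the smallest unadjusted p. Other pathway genes are named if their mean was at least 3 CPM or their unadjusted p was under 0.05. The values of 1 pathway gene are not reported here. Remaining members are given by class, and those named outside this rule were chosen after their values were seen.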

Additional observations from a re-analysis of the deposited data

Results flagged for a closer look

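Within each group of 6 mice, the highest and lowest values of 108 gene and score groups were examined for a gap to the nearest other mouse that was large for the range, a test that chance meets in about 1 of 20 groups (5.4 of 108). It was met by 12. Ccl25 in A4 had a log2 CPM of 5.33 against 0.89 to 1.31 in the other AZ6983 mice, and Ccr9 in A4 had 5.77 against -2.22 to 0.74. The T cell score of A4 was 4.58 against -0.21 to 0.71. Pf4 in A3 was at 5.67 against 3.91 to 4.39, and the mesothelium score of A3 was -1.10 against 1.37 to 2.06. Cxcl5 in C6 was at 0.58 against -1.37 to -0.76 in the other controls. C6 also had the immediate early score of 5.75 against 4.14 to 4.54, a low endothelium score of 6.45 against 6.66 to 6.72 and a low brown adipocyte score of 7.83 against 8.43 to 8.59. Ccl28 was low in C2, at -2.40 against -1.38 to -0.85 in the other controls, and low in A2, at -3.81 against -1.57 to -0.94, from 0 to 14 counts per mouse. The low value of Ccrl2 in A5 was 2.62 against 3.08 to 3.35.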

How the results depend on the processing

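No chemokine and no other pathway gene passed 10% FDR under any alternative run. The number of all genes past 10% FDR was 0 in edgeR, 92 with DESeq2's defaults and 84 with DESeq2 on the filtered genes, and 0 to 27 when 1 mouse was left out (27 without A5). The number of chemokines with an unadjusted p under 0.05 was 5 in edgeR, 3 with DESeq2 on the filtered genes (Ccl2, Ccl8 and Ccl9) and 9 without the filter, which added Ccl19-ps1, Ccl20, Cxcl2 and Cxcl17, and 2 to 7 when 1 mouse was left out: 2 without A4 or A5, 3 without C6 or A1, and 7 without A2. With reads outside genes as a covariate, Cxcl12 turned to -0.14 and Cxcl9 to -0.30. In the same fit other log2 fold changes kept their direction but moved by over 1.5 times, away from 0 for Ccl2 (-0.88), Cxcl1 (-1.16), Cxcl5 (-1.36), Cxcl16 (-0.46), Cxcl13 (0.34), Cxcl14 (-0.19), Pf4 (0.54), Ppbp (3.57), Cx3cl1 (-0.47), Cx3cr1 (-0.35) and Ccr2 (-0.57), and towards 0 for Ccl6 (-0.07), Ccl9 (-0.22), Ccl11 (0.09), Ccl21a (0.12), Ccl27a (-0.03), Ackr2 (0.18) and Ackr3 (0.06). Leaving out 1 mouse turned the log2 fold changes of Cxcl14 (-0.12 to 0.15), Pf4 (-0.072 to 0.40), Ccr1 (-0.044 to 0.18), Ccr2 (-0.15 to 0.048) and Cx3cr1 (-0.30 to 0.054). The cause was not tested. The other 570 values kept their direction, and none passed 10% FDR. Neither form of DESeq2 gave an adjusted p for Ccl25 or Ccr9, so these had no side of the threshold there. No paired analysis was possible because the mouse numbers differ between the groups and the labels give no pairing. Depth limits genes such as Ccr10, Ccl4 and Cxcl17, with few counts per mouse.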
